A study of Mus musculus with 12 samples.

Results

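The genes of lysosomal digestion were followed across 12 Affymetrix mouse arrays of cultured bone marrow progenitors that carried retroviral Hoxa9. The genes were chosen by function, as subunits of the lysosomal proton pump, proteases, other hydrolases, lipid-handling proteins, lysosomal membrane proteins and the regulator Tfeb. Of the 43 genes named, 40 had a probe set annotated to that symbol alone, out of 14860 symbols measured in the series. Each of the 40 had 1 such probe set, and all 40 were tested, with no filter on low values. Atp6v0c, Atp6v1f and Atp6v1g1 had none and were not analysed here.

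Every group shared the C57B/6 background, mice labelled female, 12 weeks old and given 5-FU before marrow was taken, an MSCV retroviral construct, and culture in DMEM with serum, IL3, SCF and IL6. Hoxa9, a homeobox factor that immortalises marrow progenitors, was in all of them. In the MIG group (3 arrays), wild-type cells received Hoxa9 and MIG, an empty vector. In the miR-155 group (3 arrays), wild-type cells received Hoxa9 and a miR-155 vector. In the knockout group (3 arrays), cells of miR-155 knockout mice received Hoxa9 and MIG. The Meis1 group (1 array) carried Hoxa9 with Meis1, a homeobox partner of Hoxa9 in leukaemia, and its title also holds "3w", which is not explained. The MIY group (2 arrays) carried Hoxa9 with the empty vector MIY. The series' design text speaks of 3 separate experiments per condition and names empty MIY as the comparator of miR-155, whereas the titles of the numbered wild-type and knockout arrays carry MIG, so both vectors are used. The labels do not say whether arrays of a group came from separate animals, and the p-values measure the spread between these arrays. The series asks, in its title, whether miR-155 is a target of Meis1 and drives leukaemia, and the comparisons here ask how lysosomal genes differed with miR-155 added, removed, or Meis1 added.

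Lysosomes are acidic compartments in which enzymes cut proteins, sugars and lipids taken up from outside or delivered by autophagy. The acid is made by the V-ATPase, a rotary pump whose V1 sector splits ATP in the cytosol and whose V0 sector carries protons across the membrane. Macrophages, osteoclasts and other cells of the myeloid line are rich in lysosomes and use cysteine cathepsins for antigen processing and matrix breakdown. MicroRNAs lower the messages they pair with, mainly through the seed at their 5′ end. The sequence that the miR-155 group was built to add is shown here with its seed, bases 2 to 8, in capitals, from RefSeq on GRCm38.p6 (chr16:84714143-84714165, plus strand).
mmu-miR-155-5p: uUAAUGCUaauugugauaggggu
No probe set was named for miR-155 or its host gene, so its own level was not measured here.

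Levels are the deposited log2 values of each array. A change is a difference of group means from limma fitted over all 12 arrays and 16015 probe sets, and a gene is called where the Benjamini-Hochberg adjusted p is under 0.05. In the 3 comparisons with the Meis1 array or the MIY arrays the median change of all genes was 0.114 (Meis1 against both empty vectors), 0.207 (miR-155 against MIY) and -0.223 (MIY against MIG), so those changes are given relative to the median gene and differ from plain differences of levels by about that much. The Meis1 group is 1 array, and its tests assume that it varies like the other groups. Levels come from different probes and are not compared between genes, and fold changes of probes near the bottom of the scale may be understated. In bulk cultures, fewer cells of a type and less RNA per cell cannot be told apart.

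The Meis1 array read Meis1 at 12.11, against 6.74 to 8.10 on the other 11, and Hoxa9 lay between 13.07 and 13.41 on all 12. The pan-leukocyte gene Ptprc and the progenitor genes Kit, Cd34 and Myb had group means between 9.33 and 12.10 in every group, while the group means of the 7 stromal markers lay between 3.80 and 7.87. The Y-linked gene Eif2s3y read 8.24 to 9.31 on the Meis1 array and both MIY arrays and 2.22 to 2.48 on the other 9, although all 12 are labelled female. A second Y-linked gene, Kdm5d, read 6.89 to 8.15 on the same 3 arrays and 3.32 to 3.50 on the rest. Every comparison with Meis1 or MIY rests on these 3 arrays, and no version of those comparisons without them exists. In MIY against MIG, miR-155 against MIY and Meis1 against MIG, this Y-linked difference and the constructs cannot be told apart. Meis1 against MIY alone compares arrays that all read both Y-linked genes. The comparisons among MIG, miR-155 and knockout do not use the Meis1 or MIY means but share the estimate of the spread. With only the arrays compared, 13 lysosomal genes were called for miR-155 against MIG and 9 against the knockout, in place of 11 and 8. These 2 counts are given without the share of all probe sets called in that fit, so they are not read as a result about the genes.

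With miR-155 added, 6 of 8 cysteine proteases and 1 of 14 proton pump genes were lower than with MIG. Against MIG, 11 of the 40 genes fell and none rose, where 3.29% of all probe sets were called, 2.68% lower and 0.612% higher. Among the 34 with a mean level of at least 9, a limit chosen after seeing the data, the count was 8, against 4.34% of all probe sets at that level. The cysteine proteases gave 6 of the 11, and the glycosidases gave 2. The V0 sector, the lipid-handling group and the membrane group gave 1 each. The median change was -0.24 over the 40 genes, against -0.01 over all probe sets, and 35 of 40 changes were negative. Leaving out 1 array left 6 to 9 of the genes called, with 6 without MIG array 2 or miR-155 array 1 and 7 without MIG array 3 or miR-155 array 3. None of the V1 subunits, accessory pump proteins, aspartic or serine proteases, or Tfeb was called.

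**Figure D1:**
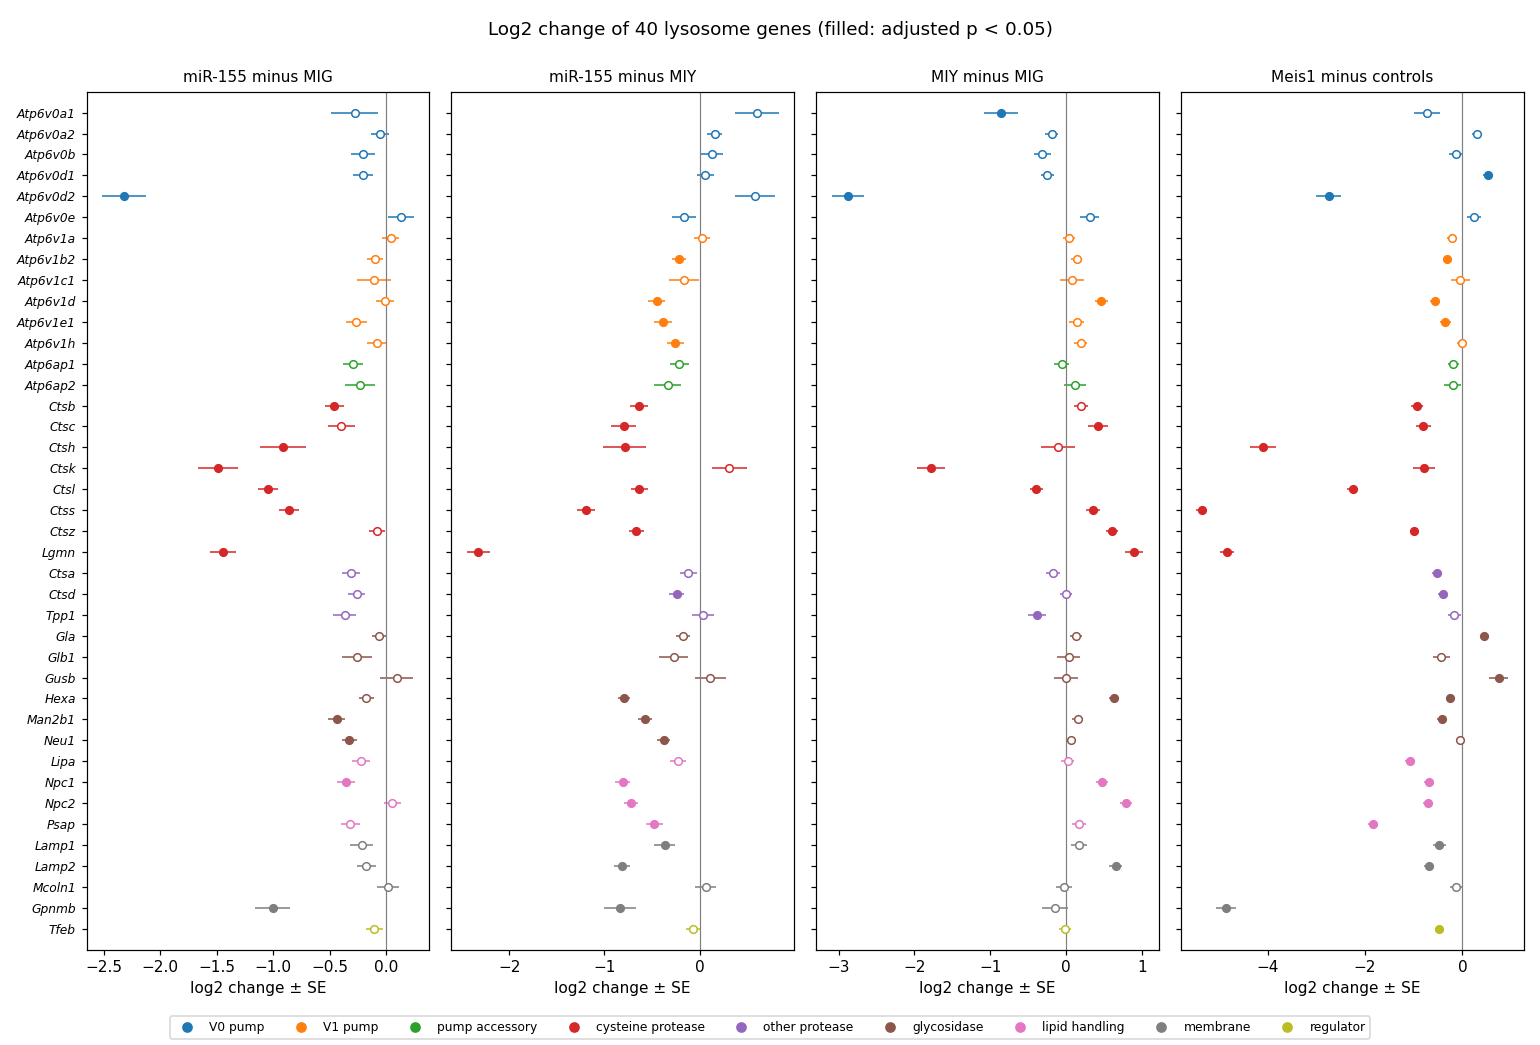
Log2 change with its standard error for each of the 40 genes (rows, coloured by role) in 4 comparisons (panels), filled where the adjusted p was under 0.05. Atp6v0d2 and Ctsk lie left of 0 in the miR-155 minus MIG, MIY minus MIG and Meis1 panels but right of 0 in the miR-155 minus MIY panel, while Lgmn and Ctss lie left of 0 in both miR-155 panels.

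The proton pump was represented by 6 V0 subunits, 6 V1 subunits and 2 accessory proteins. Atp6v0d2 encodes the d2 isoform of the V0 stalk subunit, which is restricted to a few cell types and is known in osteoclasts and macrophages. Its level was 8.52, 8.94 and 8.90 on the MIG arrays, 6.51, 6.57 and 6.30 on the miR-155 arrays and 8.39, 8.44 and 7.94 on the knockout arrays. It was 4.60 on the Meis1 array and 6.01 and 5.34 on the MIY arrays. The Meis1 array was the lowest, followed by the MIY arrays, the miR-155 arrays, the knockout arrays and the MIG arrays, with no overlap between groups. The change with miR-155 against MIG was -2.32 ± 0.19, 5-fold lower (adjusted p = 0.000324). MIY, an empty vector, was lower than MIG by more, at -2.88 ± 0.21 (7.37-fold, adjusted p = 9.53e-06). Against MIY the miR-155 arrays were not lower, at 0.58 ± 0.21 (adjusted p = 0.054).

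The widely expressed isoform of the same subunit, Atp6v0d1, read 11.08, 11.10 and 10.97 with MIG, 10.80, 10.91 and 10.82 with miR-155 and 10.91, 11.00 and 10.87 in the knockout. It read 11.45 with Meis1 and 10.72 and 10.44 with MIY. The Meis1 array was the highest of the 12 for this isoform and the lowest of the 12 for Atp6v0d2. Against both empty vectors Atp6v0d1 rose with Meis1, at 0.52 ± 0.11 (adjusted p = 0.00669), while Atp6v0d2 fell, at -2.75 ± 0.25 (6.71-fold, adjusted p = 4.83e-05). The Atp6v0d2 change with Meis1 was -4.19 against MIG alone and -1.30 against MIY alone. With miR-155 against MIG, Atp6v0d1 differed by -0.20 ± 0.08 and was not called (adjusted p = 0.28).

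Atp6v0a1, the large membrane subunit that helps place the pump, read 10.27, 10.35 and 10.40 with MIG, 10.10, 10.10 and 9.98 with miR-155, 10.19, 10.30 and 10.27 in the knockout, 9.18 with Meis1 and 9.79 and 8.72 with MIY. The MIY arrays lay apart from each other by more than any other group did for this gene. It fell in MIY against MIG, at -0.86 ± 0.23 (adjusted p = 0.0145). That change was -1.39 without MIY array 1 and -0.33 without MIY array 2, and with only the arrays compared it was not called (adjusted p = 0.0866). The remaining V0 genes Atp6v0a2, Atp6v0b and Atp6v0e were called in none of the 6 comparisons.

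Of the V1 subunits, which form the ATP-splitting head and its stalks, Atp6v1d of the central stalk read 9.33, 9.21 and 9.09 with MIG, 9.16, 9.19 and 9.27 with miR-155, 9.18, 9.31 and 9.18 in the knockout, 8.89 with Meis1 and 9.53 and 9.38 with MIY. The MIG, miR-155 and knockout arrays overlapped, with the Meis1 array below and the MIY arrays above them. It fell with Meis1, at -0.56 ± 0.10 (adjusted p = 0.00423), as did Atp6v1b2 of the head and Atp6v1e1 of the outer stalk, at -0.32 ± 0.09 and -0.35 ± 0.11. Against MIG alone these came to -0.33 for Atp6v1d (adjusted p = 0.0733), -0.25 for Atp6v1b2 (adjusted p = 0.0952) and -0.28 for Atp6v1e1 (adjusted p = 0.144), none of them called. Against MIY, Atp6v1b2, Atp6v1d, Atp6v1e1 and Atp6v1h were lower with miR-155, at -0.22 to -0.45, and on the deposited values without the median shift Atp6v1b2, Atp6v1e1 and Atp6v1h were not called. Without MIY array 1 those same 3 also lost their calls (adjusted p = 0.132, 0.0585 and 0.314 in that order), and without any 1 MIG array Atp6v1e1 lost its call with Meis1 (adjusted p up to 0.0756). Against MIG all 6 V1 changes with miR-155 were uncalled. Atp6v1a, Atp6v1c1 and the accessory genes Atp6ap1 and Atp6ap2 were called in no comparison.

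**Figure D2:**
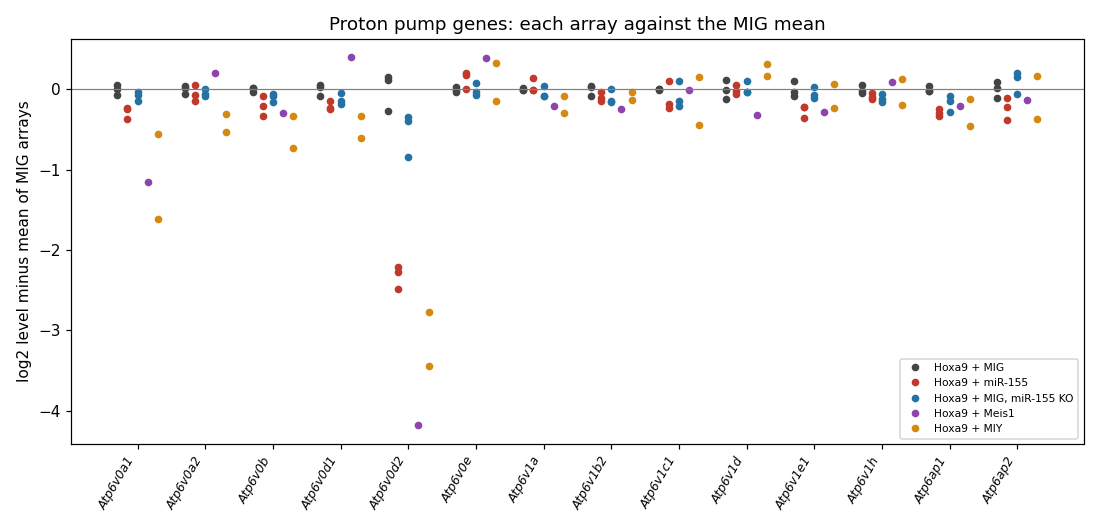
Log2 level of each array minus the mean of the 3 MIG arrays (vertical axis) for the 14 proton pump genes (horizontal axis), coloured by group. Atp6v0d2 has its 3 miR-155 arrays, 2 MIY arrays and the Meis1 array far below 0, while the points of most other pump genes stay near 0.

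The cysteine proteases are papain-like cathepsins and legumain, an asparaginyl endopeptidase that also trims cathepsins. Lgmn, the legumain gene, read 9.86, 10.18 and 10.19 with MIG, 8.60, 8.77 and 8.51 with miR-155 and 9.57, 9.87 and 9.70 in the knockout. It read 5.69 with Meis1 and 10.71 and 10.79 with MIY. The miR-155 arrays were below every MIG, MIY and knockout array, and the Meis1 array was the lowest. Lgmn fell with miR-155 against MIG, at -1.44 ± 0.11 (2.72-fold, adjusted p = 0.000324), and the value against MIY, which rests on the same miR-155 arrays, was -2.33 ± 0.12 (5.01-fold, adjusted p = 1.27e-06). With Meis1 its change was -4.83 ± 0.15 (28.5-fold, adjusted p = 5.1e-08).

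Ctss encodes cathepsin S, which cuts the invariant chain of antigen-presenting molecules. It read 11.85, 11.94 and 11.97 with MIG, 11.07, 10.94 and 11.18 with miR-155, 11.76, 11.98 and 11.79 in the knockout, 6.75 with Meis1 and 12.14 and 11.97 with MIY. The 3 miR-155 arrays were below all MIG, knockout and MIY arrays, which lay close together. The change with miR-155 was -0.86 ± 0.09 against MIG (adjusted p = 0.000905) and -1.20 ± 0.09 against MIY (adjusted p = 1.82e-05). With Meis1 the change was -5.35 ± 0.11, or 40.8-fold lower (adjusted p = 8.73e-09), the largest of the 40 genes in that comparison.

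Cathepsin L, from Ctsl, is an endopeptidase of broad reach. Its level was 10.90, 11.04 and 11.11 with MIG, 9.90, 9.97 and 10.04 with miR-155, 10.84, 11.02 and 10.72 in the knockout, 8.57 with Meis1 and 10.39 and 10.41 with MIY. The miR-155 arrays lay below the MIY arrays, which lay below MIG and knockout, while MIG and knockout overlapped each other. Ctsl fell with miR-155, at -1.04 ± 0.09 against MIG (2.06-fold, adjusted p = 0.000324) and -0.64 ± 0.09 against MIY (adjusted p = 0.000529), and with Meis1, at -2.26 ± 0.11 (4.78-fold, adjusted p = 5.93e-07).

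Ctsk, for cathepsin K, the collagen-cutting protease of osteoclasts, followed another order. It read 6.77, 7.27 and 7.44 with MIG, 5.46, 5.66 and 5.89 with miR-155, 6.90, 7.05 and 6.92 in the knockout, 5.48 with Meis1 and 5.32 and 4.98 with MIY. Both MIY arrays were lower than every miR-155 array, as for Atp6v0d2, and the Meis1 array lay within the miR-155 range. The change with miR-155 was -1.49 ± 0.17 against MIG (2.81-fold, adjusted p = 0.00164) and 0.31 ± 0.18 against MIY, which was not called (adjusted p = 0.208). MIY against MIG gave -1.78 ± 0.18 (3.44-fold, adjusted p = 8.85e-05). The call with Meis1, -0.79 ± 0.22 against both vectors (adjusted p = 0.0284), came to -1.68 against MIG alone and 0.098 against MIY alone (adjusted p = 0.788).

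Cathepsin H, an aminopeptidase from Ctsh, read 9.38, 9.46 and 9.27 with MIG, 8.47, 8.57 and 8.33 with miR-155, 9.02, 9.34 and 9.15 in the knockout, 5.22 with Meis1 and 9.53 and 8.54 with MIY. The miR-155 arrays were below all MIG and knockout arrays, and the lower MIY array lay within their range. It fell with miR-155 against MIG, at -0.92 ± 0.20 (adjusted p = 0.0408), a call lost on leaving out any 1 of the 6 arrays (adjusted p up to 0.151). Against MIY the change was -0.79 ± 0.23 (adjusted p = 0.0211), and without the higher MIY array, array 1, it was -0.30 (adjusted p = 0.107). With Meis1 it was -4.10 ± 0.27 (17.1-fold, adjusted p = 5.32e-06).

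Ctsb, for cathepsin B, an endopeptidase and carboxydipeptidase, read 12.56, 12.63 and 12.59 with MIG, 12.19, 12.21 and 12.00 with miR-155, 12.37, 12.45 and 12.39 in the knockout, 11.76 with Meis1 and 12.70 and 12.44 with MIY. The miR-155 arrays were lower than all MIG, knockout and MIY arrays. The changes were -0.46 ± 0.08 with miR-155 against MIG (adjusted p = 0.0167), -0.64 ± 0.09 against MIY (adjusted p = 0.000755) and -0.93 ± 0.11 with Meis1 (adjusted p = 0.000295). The call against MIG was lost without any 1 of the MIG arrays, miR-155 array 1 or miR-155 array 3 (adjusted p up to 0.0791).

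The last members of the group, cathepsin C (an activator of granule serine proteases) and cathepsin Z (a carboxypeptidase), were not called with miR-155 against MIG. Ctsc read 11.65, 11.58 and 11.54 with MIG, 11.22, 11.22 and 11.15 with miR-155, 11.40, 11.65 and 11.42 in the knockout, 11.00 with Meis1 and 12.05 and 11.54 with MIY. The miR-155 arrays did not overlap with MIG, at -0.40 ± 0.12 (adjusted p = 0.129), and were lower than MIY, at -0.80 ± 0.13 (adjusted p = 0.00136). Ctsz read 11.14, 11.17 and 11.16 with MIG, 11.07, 11.11 and 11.06 with miR-155, 10.97, 11.09 and 11.00 in the knockout, 10.47 with Meis1 and 11.65 and 11.42 with MIY. For Ctsz the MIY arrays were the highest and the Meis1 array the lowest, with changes of -0.66 ± 0.08 for miR-155 against MIY (adjusted p = 0.000171) and -0.99 ± 0.09 for Meis1 (adjusted p = 4.77e-05).

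**Figure D3:**
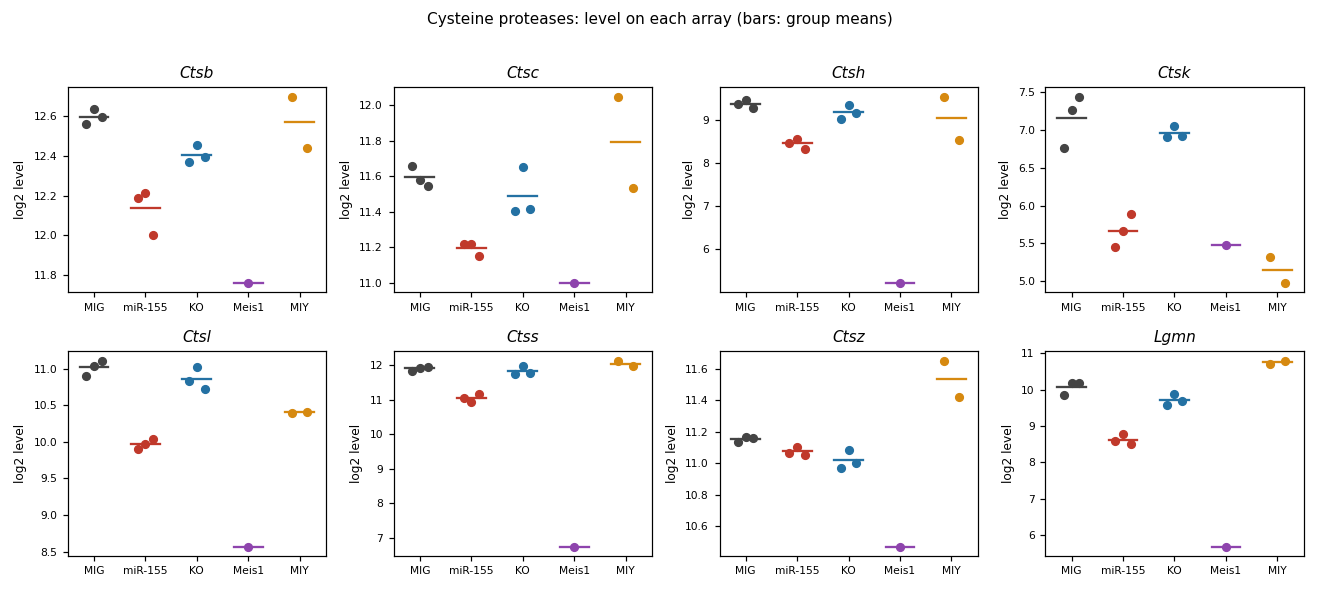
Log2 level on every array (points) with group means (bars) for the 8 cysteine proteases, 1 panel each with its own vertical axis that does not start at 0. Lgmn, Ctss, Ctsl and Ctsb have all miR-155 arrays below the MIG, knockout and MIY arrays, whereas for Ctsk the MIY arrays are the lowest.

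Among the glycosidases, which strip sugars from glycoproteins and glycolipids, Man2b1 (lysosomal alpha-mannosidase) read 10.53, 10.64 and 10.55 with MIG, 10.10, 10.22 and 10.09 with miR-155, 10.39, 10.58 and 10.53 in the knockout, 10.23 with Meis1 and 10.52 and 10.49 with MIY. The miR-155 arrays were the lowest, with the Meis1 array just above them. Man2b1 fell with miR-155, at -0.44 ± 0.07 against MIG (adjusted p = 0.0103) and -0.57 ± 0.08 against MIY (adjusted p = 0.000387), and with Meis1, at -0.42 ± 0.09 (adjusted p = 0.00812). The first of these was lost without MIG array 2 or miR-155 array 1 (adjusted p up to 0.0567). Neu1, the lysosomal sialidase, had means of 9.15 ± 0.06 (SD, n = 3) with MIG and 8.83 ± 0.06 (SD, n = 3) with miR-155, a change of -0.33 ± 0.07 (adjusted p = 0.0294). The Neu1 call was kept in 1 of the 6 fits without 1 array, the one without miR-155 array 2 (adjusted p up to 0.134). Against MIY its change was -0.38 ± 0.07 (adjusted p = 0.00242), and with Meis1 it was -0.05 ± 0.08, not called.

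Hexa, the alpha subunit of beta-hexosaminidase, read 10.33, 10.48 and 10.38 with MIG, 10.20, 10.24 and 10.22 with miR-155, 10.33, 10.44 and 10.31 in the knockout, 10.46 with Meis1 and 10.85 and 10.77 with MIY. The MIY arrays stood above all others, and the groups with MIG, knockout and Meis1 lay close together. It was lower with miR-155 than with MIY, at -0.79 ± 0.07 (adjusted p = 2.75e-05), and higher in MIY than in MIG, at 0.64 ± 0.07 (adjusted p = 9.71e-05). The Meis1 value, -0.26 ± 0.08 (adjusted p = 0.0444), came to 0.06 against MIG alone and was lost without any 1 of the MIG arrays (adjusted p up to 0.0724).

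The beta-glucuronidase Gusb and the alpha-galactosidase Gla were higher with Meis1. Gusb read 10.14, 9.93 and 9.91 with MIG, 10.05, 10.08 and 10.15 with miR-155, 9.89, 10.01 and 9.93 in the knockout, 10.74 with Meis1 and 10.11 and 9.44 with MIY. The highest of the 12 arrays was that of Meis1, and the changes were 0.74 ± 0.19 for Gusb (adjusted p = 0.0204) and 0.44 ± 0.09 for Gla (adjusted p = 0.00657). Glb1, the beta-galactosidase, was called in no comparison.

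The other proteases are Ctsa, a serine carboxypeptidase that protects the sialidase complex, the aspartic protease Ctsd, and Tpp1, a tripeptidyl peptidase. Ctsa read 12.22, 12.28 and 12.21 with MIG, 11.94, 12.01 and 11.83 with miR-155, 12.05, 12.25 and 12.16 in the knockout, 11.64 with Meis1 and 11.95 and 11.74 with MIY. Its miR-155 arrays lay below MIG without a call (-0.31 ± 0.08, adjusted p = 0.0809), and the Meis1 array was the lowest. With Meis1 both fell, at -0.52 ± 0.11 for Ctsa (adjusted p = 0.00652) and -0.40 ± 0.10 for Ctsd (adjusted p = 0.0168). Ctsd was also lower with miR-155 than with MIY, at -0.24 ± 0.08 (adjusted p = 0.0417), and Tpp1 was lower in MIY than in MIG, at -0.38 ± 0.11 (adjusted p = 0.0246). Leaving out single arrays ended both calls, for Ctsd without either MIY array, miR-155 array 2 or miR-155 array 3 (adjusted p up to 0.146) and for Tpp1 without MIG array 1, MIG array 2 or MIY array 2 (adjusted p up to 0.179).

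All 4 lipid-handling genes were lower with Meis1 than the mean of both vectors, and 3 of them also against MIG alone. Psap, whose product is cut into the saposins that present glycolipids to their hydrolases, averaged 12.96 ± 0.04 (SD, n = 3) with MIG and read 12.66, 12.70 and 12.58 with miR-155, 12.75, 12.90 and 12.89 in the knockout, 11.22 with Meis1 and 13.06 and 12.78 with MIY. Far below the other 11 lay the Meis1 array, at a change of -1.84 ± 0.11 (3.57-fold, adjusted p = 2.83e-06). With miR-155 against MIG, Psap was not called (-0.32 ± 0.08, adjusted p = 0.0833), although the arrays did not overlap. Against MIY its change was -0.47 ± 0.09 (adjusted p = 0.00328), and -0.21 after quantile normalization, not called (adjusted p = 0.0798).

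Lipa, the acid lipase that frees cholesterol from its esters, read 10.92, 10.91 and 10.90 with MIG, 10.73, 10.72 and 10.62 with miR-155, 10.50, 10.75 and 10.50 in the knockout, 9.85 with Meis1 and 10.73 and 10.70 with MIY. The Meis1 array was the lowest, at a change of -1.07 ± 0.10 (2.1-fold, adjusted p = 5.16e-05).

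Npc1 and Npc2, the membrane and soluble proteins that export cholesterol, had different orders over the groups. Npc1 read 9.55, 9.72 and 9.77 with MIG, 9.29, 9.39 and 9.31 with miR-155, 9.38, 9.56 and 9.47 in the knockout, 9.24 with Meis1 and 9.90 and 9.96 with MIY. Npc2 read 10.96, 11.09 and 11.03 with MIG, 11.08, 11.10 and 11.06 with miR-155, 10.98, 11.13 and 11.01 in the knockout, 10.71 with Meis1 and 11.69 and 11.50 with MIY. For Npc1 the miR-155 arrays lay below MIG and MIY, while for Npc2 the miR-155 and MIG arrays overlapped. With miR-155 against MIG, Npc1 fell, at -0.35 ± 0.08 (adjusted p = 0.0389), and Npc2 differed by 0.06 ± 0.07, which was not called. The Npc1 call was kept in 1 of the 6 fits without 1 array, the one without MIG array 1 (adjusted p up to 0.160). Both were lower with miR-155 than with MIY, at -0.81 ± 0.08 (adjusted p = 7.29e-05) and -0.72 ± 0.08 (adjusted p = 0.000117), and higher in MIY than in MIG, at 0.48 ± 0.08 and 0.80 ± 0.08. With Meis1 the changes were -0.68 ± 0.10 and -0.72 ± 0.09, and against MIG alone that of Npc2 was -0.32 and lost its call (adjusted p = 0.0508).

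Gpnmb, a transmembrane glycoprotein of macrophage lysosomes and melanosomes, read 11.76, 11.91 and 11.83 with MIG, 10.89, 10.91 and 10.69 with miR-155, 11.36, 11.63 and 11.46 in the knockout, 6.91 with Meis1 and 11.81 and 11.12 with MIY. The miR-155 arrays lay below all MIG, knockout and MIY arrays. Gpnmb fell with miR-155, at -1.01 ± 0.15 against MIG (2.01-fold, adjusted p = 0.00643) and -0.84 ± 0.17 against MIY (adjusted p = 0.00394), and with Meis1, at -4.85 ± 0.20 (28.9-fold, adjusted p = 2.59e-07). Without MIY array 1 the change against MIY was -0.50 (adjusted p = 0.011).

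Lamp1 and Lamp2, the main glycoproteins lining the lysosomal membrane, were not called with miR-155 against MIG. Lamp1 read 11.64, 11.68 and 11.69 with MIG, 11.48, 11.52 and 11.37 with miR-155, 11.48, 11.63 and 11.48 in the knockout, 11.29 with Meis1 and 11.83 and 11.41 with MIY. Lamp2 read 11.72, 11.63 and 11.54 with MIG, 11.42, 11.51 and 11.45 with miR-155, 11.63, 11.70 and 11.58 in the knockout, 11.29 with Meis1 and 12.19 and 11.95 with MIY. For both, the lowest array was that of Meis1, with changes of -0.47 ± 0.13 (adjusted p = 0.0298) and -0.68 ± 0.10 (adjusted p = 0.00128). Against MIY the changes with miR-155 were -0.37 ± 0.11 (adjusted p = 0.0258) and -0.81 ± 0.09 (adjusted p = 0.000109). Without MIY array 1 the first of these was -0.16 (adjusted p = 0.174), and without MIG array 2 or 3 the call of Lamp1 with Meis1 was lost (adjusted p up to 0.0512). Against MIG alone, the changes with Meis1 were -0.39 for Lamp1 (adjusted p = 0.0947) and -0.35 for Lamp2 (adjusted p = 0.0531), neither called.

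Mcoln1, the calcium channel of the lysosomal membrane, read 9.21, 9.26 and 9.26 with MIG, 9.33, 9.39 and 9.06 with miR-155, 9.12, 9.28 and 9.21 in the knockout, 9.10 with Meis1 and 9.08 and 8.90 with MIY. Its groups lay close together and it was called in no comparison. Tfeb, the transcription factor that drives many lysosomal genes, read 7.18, 7.25 and 7.26 with MIG, 7.06, 7.23 and 7.09 with miR-155, 7.14, 7.28 and 7.04 in the knockout, 6.75 with Meis1 and 6.96 and 7.01 with MIY. The Meis1 array was the lowest of the 12, with a change of -0.48 ± 0.09 (adjusted p = 0.00518), and Tfeb was called in no other comparison (-0.10 ± 0.08 with miR-155 against MIG). After quantile normalization the Tfeb change with Meis1 was -0.22 and not called (adjusted p = 0.0594).

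**Figure D4:**
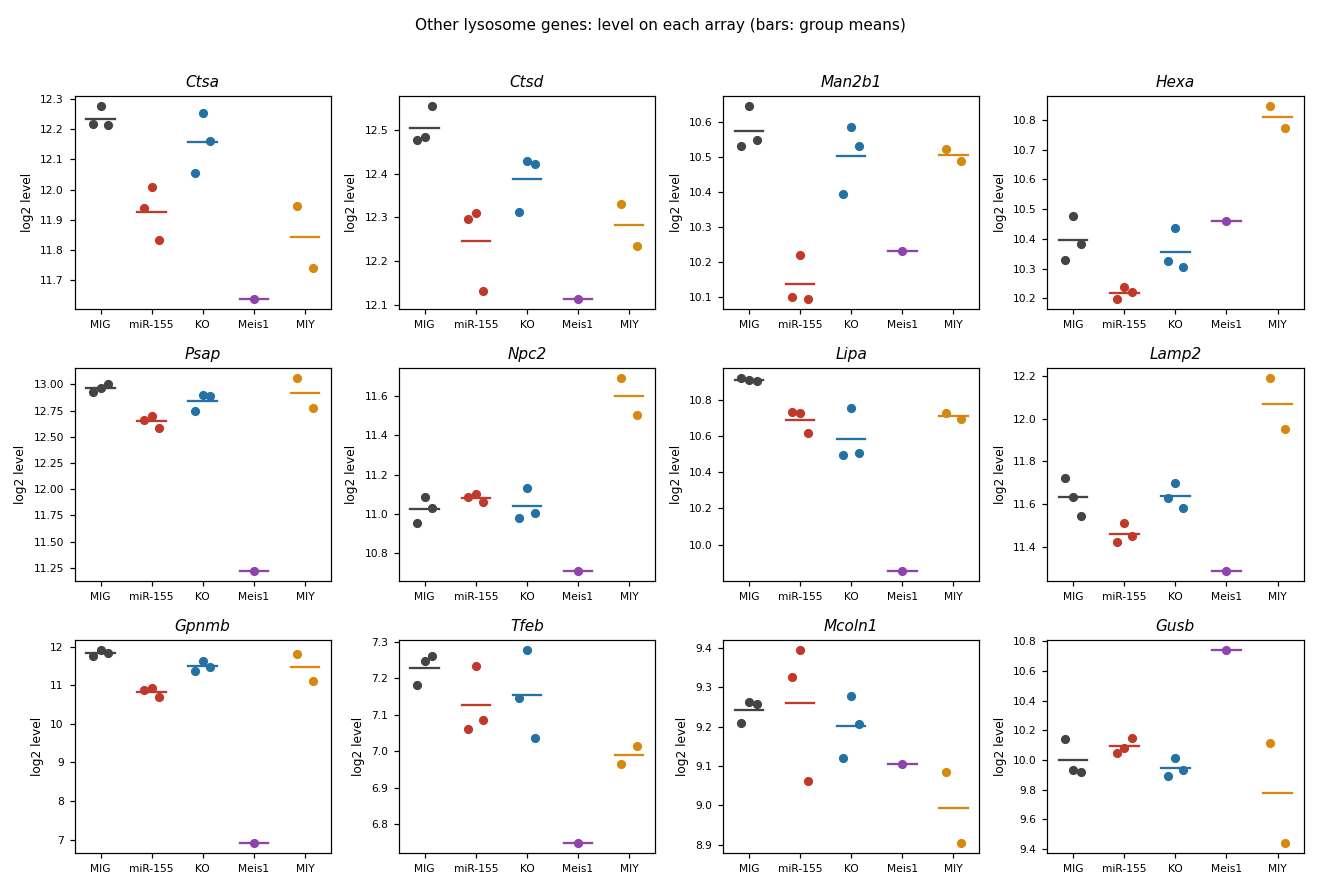
Log2 level on every array (points) with group means (bars) for 12 further lysosomal genes, 1 panel each with its own vertical axis that does not start at 0. Psap, Lipa and Gpnmb are lowest on the Meis1 array, Gusb is highest there, and Hexa, Npc2 and Lamp2 are highest on the MIY arrays.

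Loss of miR-155 gave no called lysosomal gene. Between knockout and MIG, 0 of 40 genes passed limma's test, where 0.0312% of all probe sets (5 of 16015) did, 0.0187% higher and 0.0125% lower. At an unadjusted p under 0.05, which allows for no multiple testing, 6 of the 40 passed, all negative, or 15% against 4.83% of all probe sets in either direction. The same limit gave 52.5% against 15.3% for miR-155 against MIG and 37.5% against 16% for miR-155 against the knockout. The most negative values were -0.53 ± 0.19 for Atp6v0d2, -0.36 ± 0.11 for Lgmn, -0.35 ± 0.15 for Gpnmb and -0.33 ± 0.08 for Lipa, and the smallest adjusted p among the 40 was 0.595. The median of the 40 was -0.09, against -0.02 over all probe sets, and 35 were negative.

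Between the miR-155 and knockout arrays, 8 genes were lower and none higher, where 4.06% of all probe sets were called, 2.98% lower and 1.09% higher. They were Atp6v0d2, Ctsk, Ctsl, Ctss, Lgmn, Gpnmb, Man2b1 and Neu1, and the miR-155 arrays here are also those compared with MIG. The changes ran from -1.79 ± 0.19 for Atp6v0d2 (adjusted p = 0.000937) through -1.29 ± 0.17 for Ctsk, -1.08 ± 0.11 for Lgmn, -0.88 ± 0.09 for Ctsl, -0.78 ± 0.09 for Ctss and -0.65 ± 0.15 for Gpnmb (adjusted p = 0.0446) to -0.37 ± 0.07 for Man2b1 and -0.32 ± 0.07 for Neu1 (adjusted p = 0.0286). Gpnmb lost its call on leaving out any 1 of the 6 arrays (adjusted p up to 0.155), Neu1 kept its call in 1 of those 6 fits (up to 0.113) and Man2b1 in 2 (up to 0.0905). The count came to 5 without miR-155 array 1, miR-155 array 3, knockout array 2 or knockout array 3. Ctsb, Ctsh and Npc1, called against MIG, had -0.27 ± 0.08, -0.72 ± 0.20 and -0.14 ± 0.08 here and were not called.

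The Meis1 array differed from the mean of both empty vectors for 27 of the 40 genes, 24 lower and 3 higher, where 23.3% of all probe sets were called, 13.7% lower and 9.57% higher. Among genes with a mean level of at least 9 the count was 23 of 34, against 35.9%. All 8 cysteine proteases fell, with a median of -1.62, as did all 4 lipid-handling genes, 3 of 4 membrane genes, 2 of 3 other proteases and Tfeb. Against MIG alone 21 genes were called, 20 of them among the 27, and Npc2, Lamp1, Lamp2, Hexa and the 3 V1 subunits were not. The pump was mixed, with 4 genes lower and 1 higher of 14, and the glycosidases were split, 2 lower and 2 higher of 6. A called fall of at least 2-fold was measured for 8 genes, against 4.63% of all probe sets. The counts against MIG alone and with only the arrays compared are given without the share of all probe sets called in those fits. With only the Meis1, MIG and MIY arrays in the fit, 15 genes were called, all lower and all among the 27, so Atp6v0d1, Gusb and Gla were not called there.

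Against MIY, 21 genes were lower with miR-155 and none higher, where 37.8% of all probe sets were called, 19.6% lower and 18.2% higher. Among genes with a mean level of at least 9 the count was 19 of 34, all lower, against 46.3%, with 25.4% lower. The split depended on the scaling of the arrays, with 17 lower and 3 higher after quantile normalization and 14 lower and 7 higher on the deposited values without the median shift. On those deposited values 7737 of all 16015 probe sets were called, and the share after quantile normalization is not given. Between the empty vectors themselves, MIY against MIG, 5 genes were lower and 9 higher, where 38.5% of all probe sets were called, 18.7% lower and 19.9% higher. That split was 8 lower and 9 higher after quantile normalization and 12 lower and 7 higher without the median shift. Without the shift 7921 of all 16015 probe sets were called, and again the share after quantile normalization is not given. The share of members called with the shift, 14 of 40, was near the share of all probe sets. Among genes with a mean level of at least 9 it was 12 of 34, against 46.5%. The 2 MIY arrays also differed from each other, with array 1 above array 2 for 34 of the 40 genes by a median of 0.236, where the median over all probe sets was 0.00261. With 1 MIY array left out, the split of called genes between lower and higher in MIY against MIG depended on which array it was.

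**Figure D5:**
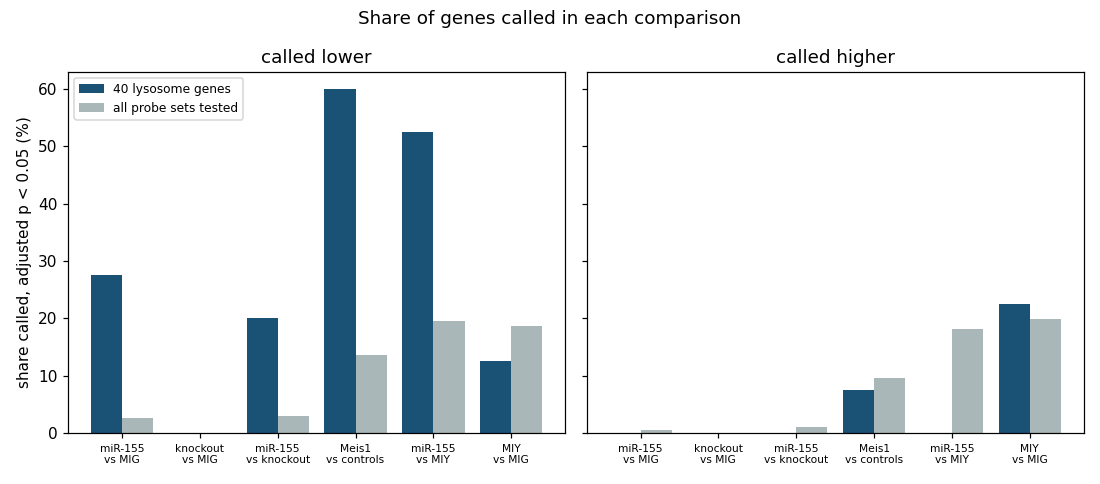
Share of genes called lower (left) and higher (right) in each of the 6 comparisons, for the 40 lysosomal genes (dark bars) and all 16015 probe sets (light bars), in percent from 0. In the comparison of miR-155 with MIG, 11 of 40 genes were called lower against 2.68% of all probe sets, and for MIY against MIG 5 were lower and 9 higher beside 18.7% and 19.9% of all probe sets.

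Across the 5 groups, MIG held the highest mean for 21 of the 40 genes and the lowest for none. The Meis1 array held the lowest for 24, MIY for 9, miR-155 for 5 and the knockout for 2. These ranks used the deposited values without the median shift, and ranks over all probe sets are not given here. The median over all probe sets was 6.83 to 6.90 on the MIG arrays, 6.76 to 6.86 on the miR-155 arrays and 6.79 to 6.90 on the knockout arrays. It was 6.64 on the Meis1 array and 6.66 to 6.67 on the MIY arrays. Within groups the genes varied little, with a median SD over the 40 of 0.061 for MIG, 0.075 for miR-155 and 0.080 for the knockout, and 0.176 for MIY. No call was made in any of the 6 comparisons for 9 genes, and 7 of them belong to the pump.

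The wider lysosomal pathway, taken from lists of genes outside the 40, was described by counts. Of 34 measured enzymes and activators, 3 fell with miR-155 against MIG, namely the phospholipase-like Plbd1 at -1.58, the acid amidase Naaa at -1.38 and the tartrate-resistant phosphatase Acp5 at -1.12. Against the knockout 4 fell, those 3 and the aspartic protease Ctse at -0.53. With Meis1 15 of the 34 fell and none rose, with Plbd1 at -4.23. Of 19 other membrane proteins and transporters, 4 fell with miR-155 against MIG, among them the metal transporter Slc11a1 at -0.94 and the peptide transporter Slc15a3 at -0.78, and 14 fell with Meis1. None of these 53 genes was called between knockout and MIG.

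Of 12 other pump subunits and assembly factors, none was called with miR-155 against MIG, and 2 fell with Meis1, namely Rnasek at -0.73 and the a3 subunit gene Tcirg1 at -0.69. Of 18 regulators and sorting genes, none was called with miR-155 against either MIG or the knockout. With Meis1, 7 of the 18 fell and 3 rose. Tfe3 and Mitf, relatives of Tfeb, fell, at -0.93 and -0.90, while another relative, Tfec, was not called, at 0.0013. Igf2r, the receptor that carries mannose-6-phosphate-tagged enzymes to lysosomes, rose, at 2.42, and Gnptab, which helps make that tag, rose, at 0.50.

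Markers of the cell types that such cultures can hold moved in the same comparisons. Of 16 macrophage and monocyte markers, 7 fell with miR-155 against MIG and none rose, 6 fell and 1 rose against the knockout, and 13 fell and 1 rose with Meis1. Their summed level, as the log2 of the summed linear values, was 14.45 to 14.49 with MIG, 13.82 to 13.93 with miR-155, 14.26 to 14.57 in the knockout, 12.51 with Meis1 and 13.76 to 14.46 with MIY. Such sums, here and below, add values of different probe sets, so the highest-reading probe sets weigh most. They do not measure shares of cells. The colony-stimulating factor receptor gene Csf1r had group means of 10.36 with MIG, 9.26 with miR-155, 10.26 in the knockout, 6.10 with Meis1 and 10.02 with MIY. Adgre1, the 1 marker that rose with Meis1, had means of 9.94, 9.60, 9.87, 10.77 and 10.50 in that order. With miR-155 against MIG, 9 of the 16 markers were not called. The part of these cells in the lower protease levels was not tested.

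The 9 mast cell and basophil markers all fell with miR-155 against MIG, and all 9 also fell in MIY against MIG. Their summed level was 13.83 to 14.06 with MIG, 12.58 to 12.82 with miR-155, 13.84 to 13.91 in the knockout, 12.08 with Meis1 and 12.14 to 12.26 with MIY. The 5 red cell and megakaryocyte markers summed to 10.20 to 10.28 with MIG, 10.02 to 10.15 with miR-155, 10.46 to 10.69 in the knockout, 8.52 with Meis1 and 9.08 to 9.76 with MIY. In both lists the Meis1 and MIY arrays lay below the miR-155 arrays, as they did for Atp6v0d2. The likeness is partial, since for Atp6v0d2 the knockout arrays lay below MIG. In the red cell and megakaryocyte sums the knockout arrays lay above MIG, and in the mast cell and basophil sums they lay within the MIG range. The part of these cells in the Atp6v0d2 levels was not tested. In the eosinophil, neutrophil and lymphoid sums the MIY and miR-155 arrays overlapped. Eosinophil markers summed to 9.47 to 10.29 with MIY and 9.90 to 10.12 with miR-155. Neutrophil markers summed to 15.28 to 15.85 and 15.76 to 15.90, and lymphoid markers to 10.74 to 11.37 and 10.38 to 10.79. The 10 osteoclast markers had summed levels of 10.97 to 11.08 with MIG, 10.85 to 10.93 with miR-155, 11.09 to 11.11 in the knockout, 10.99 with Meis1 and 10.89 to 11.03 with MIY, and 2 of them fell with miR-155 against MIG. Against the knockout 3 of the 10 fell, and with Meis1 5 fell and 1 rose. Group means of these markers ranged from 3.95 to 4.72 for Calcr and Dcstamp to between 9.23 and 10.14 for Car2. Car2 was the 1 osteoclast marker that rose with Meis1, at 0.55, and it weighs most in that sum. Of 12 neutrophil markers 1 fell with miR-155 against MIG and 9 with Meis1, and of 7 eosinophil markers 4 fell in each of those comparisons. With miR-155 against MIG, 1 of 6 dendritic, 2 of 7 lymphoid and 3 of 5 red cell and megakaryocyte markers fell. With Meis1 the counts were 2, 3 and 4, with 1 dendritic marker higher.

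Promoter windows from RefSeq (GRCm38.p6, 250 bases before to 50 after a gene's start, 300 in all) were at hand for 34 of the 43 genes, as 41 windows. Tfeb and its relatives are known to bind an E-box, CACGTG, in lysosomal promoters, and the ETS factor PU.1 of myeloid cells binds sites such as GAGGAAGT. Both were searched on both strands, with the longer palindrome TCACGTGA, which contains CACGTG. The shorter motif, CACGTG, stood in 12 of the 41 windows (29.3%), 1 window for each of 12 genes, against 7.15% of all 32851 windows. TCACGTGA stood in 7 (17.1%) against 0.974%, and GAGGAAGT in 4 (9.76%) against 3.20%. A match is a run of letters and not a measured site.

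The 7 genes with TCACGTGA were Atp6v0d1, Atp6v0e, Atp6v1a, Ctsa, Ctsd, Gla and Mcoln1. With miR-155 against MIG none of the 7 was called, at -0.31 to 0.13, and with Meis1 2 were lower and 2 higher. Of the 11 genes lower with miR-155, 7 had a window, and 2 of those, Ctsl and Lgmn, held CACGTG. Of all 12 genes with CACGTG, 5 were lower with Meis1 and 2 higher. GAGGAAGT stood, on the other strand as ACTTCCTC, in the windows of Ctsc, Ctss, Gla and Gusb, of which Ctss fell with miR-155, and with Meis1 2 fell and 2 rose. The windows below show these letters in capitals, in a membrane gene with 4 matches (Lamp1, chr8:13158911-13159210, plus strand), a protease with 2 matches that was not called with miR-155 (Ctsa, chr2:164833523-164833822, plus strand), the gene with the largest change among those lower with miR-155 than with either vector (Lgmn, chr12:102439043-102439342, minus strand), and the cathepsin with the largest change with Meis1 (Ctss, chr3:95526536-95526835, plus strand).
Lamp1: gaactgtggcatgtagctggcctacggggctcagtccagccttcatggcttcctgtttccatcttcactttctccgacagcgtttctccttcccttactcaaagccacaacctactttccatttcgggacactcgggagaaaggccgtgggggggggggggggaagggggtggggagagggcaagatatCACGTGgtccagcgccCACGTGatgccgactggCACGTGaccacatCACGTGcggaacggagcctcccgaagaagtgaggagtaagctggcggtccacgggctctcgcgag
Ctsa: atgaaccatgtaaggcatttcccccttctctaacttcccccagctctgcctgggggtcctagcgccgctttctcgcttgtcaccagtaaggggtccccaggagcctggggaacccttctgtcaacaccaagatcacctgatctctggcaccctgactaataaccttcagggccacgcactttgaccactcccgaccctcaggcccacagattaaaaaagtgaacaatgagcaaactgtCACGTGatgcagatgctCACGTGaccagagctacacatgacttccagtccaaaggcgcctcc
Lgmn: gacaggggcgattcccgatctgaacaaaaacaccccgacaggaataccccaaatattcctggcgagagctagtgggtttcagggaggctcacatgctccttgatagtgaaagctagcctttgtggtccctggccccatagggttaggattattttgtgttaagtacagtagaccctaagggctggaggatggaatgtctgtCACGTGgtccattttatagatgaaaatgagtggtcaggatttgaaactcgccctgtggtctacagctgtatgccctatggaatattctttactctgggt
Ctss: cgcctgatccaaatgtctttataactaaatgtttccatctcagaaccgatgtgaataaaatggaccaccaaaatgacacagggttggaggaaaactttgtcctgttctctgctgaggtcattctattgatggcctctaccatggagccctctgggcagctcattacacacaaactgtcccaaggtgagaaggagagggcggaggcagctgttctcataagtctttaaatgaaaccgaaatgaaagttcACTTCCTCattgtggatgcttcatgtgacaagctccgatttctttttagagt
In Lamp1 the matches start 61, 45, 28 and 15 bases before the start, in Ctsa 12 bases before it and at base 6 after it, in Lgmn 49 bases before it, and in Ctss 2 bases before it.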

How the data were processed

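Total RNA of 12 cultures was hybridised to Affymetrix mouse gene arrays. The deposited values are log2 levels, 1 per probe set and array, made by the authors with RMA in the Affymetrix Expression Console, per the submitters' processing notes. Versions: not given in the sources used here. The method subtracts background, equalises the arrays and sums probes, so levels cannot be set against each other between genes.

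Gene symbols came from the platform's annotation, by which 16015 of 23332 probe sets had at least 1 symbol and were tested. A gene was read from a probe set with that symbol alone. limma 3.58.1 in R 4.3.3 fitted 1 mean per group over all 12 arrays, with 7 residual degrees of freedom, and p-values were adjusted by Benjamini-Hochberg over all 16015. Where the median change over all genes passed 0.1, the arrays were shifted to a median difference of 0 from the mean array. The fit was tested on simulated data. The lysosomal genes, the pathway and marker lists and the tests were chosen with earlier results of these data known. Levels array by array are given for genes called in at least 1 comparison with a change of at least 0.5, for up to 6 called genes of the largest change per comparison, and for Atp6v0d1, Atp6v0d2, Gpnmb, Ctss, Lamp1, Tfeb and Mcoln1. Of the pathway lists, up to 3 called genes per direction, list and comparison are named, and Tfec is named as a relative of Tfeb. The number of arrays limits the precision, and no 2 arrays held identical values.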

Additional observations from a re-analysis of the deposited data

How the results depend on the processing

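The counts of lysosomal genes called were recomputed with quantile normalization, the other median scaling, only the arrays compared, replicate number as a block, a filter at a mean log2 level of 5, an intensity trend, another control for Meis1, and each array left out. Each gene had 1 probe set, so averaging probe sets could give no other value. Counts moved by over 1.5 times in some of the fits without 1 array and, for Meis1, with only the arrays compared. The counts given next are without the share of all probe sets called in each fit, so they describe only how far the calls depend on the settings. Their ranges cover all fits without 1 array, also those that moved less. Leaving out 1 array gave 6 to 9 genes for miR-155 against MIG (11), 5 to 7 for miR-155 against the knockout (8) and 12 to 22 for MIY against MIG (14). Using only the arrays compared gave 15 for Meis1 (27). With the replicate number as a block the counts were 10 for miR-155 against MIG, 0 for the knockout against MIG, 7 for miR-155 against the knockout, 24 for Meis1, 17 for miR-155 against MIY and 13 for MIY against MIG. Same-numbered arrays deviated together only weakly (r from -0.067 to 0.164 over 9 pairs), so the numbers were not taken as pairing. Meis1 gave 21 calls against MIG alone and 27 against MIY alone, and 2 called genes changed sign, Ctsk to 0.098 against MIY alone and Hexa to 0.0615 against MIG alone. The cause was not tested. Every array left out kept the calls of 6 of 11 genes for miR-155 against MIG (Atp6v0d2, Ctsk, Ctsl, Ctss, Lgmn, Gpnmb), 5 of 8 against the knockout, 24 of 27 for Meis1 (not Atp6v1e1, Hexa or Lamp1, lost without single MIG arrays), 15 of 21 against MIY and 11 of 14 between the vectors (not Ctsc, Ctss or Tpp1). The share called among probe sets of mean level at least 9 was added after seeing the data. Group sizes of 1 to 3 arrays limit all of these.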
